A study of Mus musculus with 12 samples.

Results

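Apart from the antisense RNA Tomm6os, the 39 genes described here encode the protein import machinery of mitochondria and the enzymes and adaptors that fuse and divide these organelles. They also encode pores and quality control proteins of mitochondrial membranes. They were chosen by name from the 55487 genes of the deposited gene table: every gene whose symbol starts with Tomm or Timm (pseudogenes and Timmdc1 left out), plus Opa1, Mfn1, Mfn2, Dnm1l, Fis1, Mff, Vdac1, Vdac2, Vdac3, Ppif, Pink1, Phb and Phb2. The rule uses names and no measured values, but it was set with earlier results of these data known. Of the 39, 37 passed the filter on low values (1 or more of the 6 groups averaging over 1 FPKM) and were tested. Tomm20l was listed at 0 in all 12 libraries, and Timm8a2 reached no more than 0.27 FPKM.

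Poly-A RNA of whole mouse retina was sequenced in 12 libraries, 2 for each of 6 groups. C57BL/6J wild type (WT) mice, WT mice whose eyes had received an AAV2.7m8 vector with a short hairpin RNA against Pax6 under a U6 promoter together with GFP (shPax6), and Jnk3-/- mice (JNK3 KO) were each injected into the vitreous with PBS or with 1 µL of 40 mM NMDA, an agonist of glutamate receptors that injures retinal ganglion cells (RGCs). Retinas were taken a day later, and the mice were 2 months old where the study states an age. The study asked what excitotoxic injury does to retinal transcription and how far this depends on PAX6, a transcription factor, and JNK3, a stress kinase. No library with a scrambled hairpin was analysed here, so infection with the vector and knockdown of Pax6 cannot be told apart. Each library pooled RNA of several retinas, and nothing says that the 2 libraries of a group came from separate animals, so p-values measure only the spread between these libraries.

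Nearly all mitochondrial proteins are made in the cytosol and enter through the TOM complex of the outer membrane. Precursors then pass to the TIM23 complex, which moves matrix proteins through the inner membrane, or are guarded by small TIM chaperones on their way to the TIM22 complex, which inserts carrier proteins. Fusion by OPA1 and the mitofusins and fission by DRP1 (the product of Dnm1l) set the shape of the network. OPA1 is known for its importance to RGCs, since mutations in it cause dominant optic atrophy.

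The libraries were checked first. Pax6 was at 173 and 177 FPKM (fragments scaled by transcript length and by the mapped total of the library) in WT PBS libraries against 92.8 to 94.6 in shPax6 PBS libraries, and Mapk10, which encodes JNK3, was at 42.8 and 50.7 against 8.75 and 9.47 in JNK3 KO PBS libraries. In WT NMDA libraries Mapk10 was as low, at 6.00 and 8.98 FPKM. Pax6 was at 55.4 and 53.8 FPKM there, below the 58.7 to 94.6 of the shPax6 libraries with PBS or NMDA. The 2 WT NMDA libraries stood apart: their FPKM values summed to 805627 and 820180, against 541210 to 576922 in the other 10. Marker genes of other cells moved with the groups as well. The summed level of 13 RGC markers went from 686 to 711 FPKM down to 383 to 394 in WT retinas. It went from 224 to 230.1 down to 69.3 to 75.5 in shPax6 retinas. In JNK3 KO retinas it went from 657 to 698 down to 185 to 186. Most of the WT NMDA sum was Thy1, at 136 and 154 FPKM (142 and 145 with PBS), and Sncg, at 112 and 115.5 (128 and 145). Taken gene by gene, these 13 markers had median log2 changes of -2.15 in WT, -2.51 in shPax6 and -1.92 in JNK3 KO retinas. The sums therefore do not rank the genotypes by RGC marker loss. Of 8 neutrophil markers the sum went from 213 to 236 up to 1953 to 1989.9 in WT, from 5.20 to 6.09 up to 67.0 to 74.3 in shPax6, and from 156 to 169.8 down to 13.3 to 14.2 in JNK3 KO retinas. In whole retina, fewer cells of a type and less RNA per cell cannot be told apart.

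In WT retinas most genes of protein import rose with NMDA, and the genes of fusion fell. After a correction for gene length several import genes lost their call, and Mfn2 lost its call and direction. By limma on log2(FPKM + 0.1), 26 of the 37 tested genes rose, 6 fell and 5 did not pass a Benjamini-Hochberg adjusted p of 0.05, where 59.8% of all 16471 tested genes were called (26.0% higher and 33.8% lower). The median log2 fold change of the 37 was 0.80, against -0.09 for all tested genes. A log2 fold change above 1 was reached by 16 of them (14.2% of all genes) and a value below -1 by 2, Opa1 and Dnm1l (20.9% of all genes). The 6 small TIM chaperones all rose, as did 5 of 6 TIM23 genes and 8 of 10 TOM genes. Tomm6os, an antisense RNA counted among the TOM genes, was not called. The 3 fusion genes all fell. Of these import genes, Timm8b, Timm10b, Timm13, Timm23, Timm50, Tomm5, Tomm6, Tomm7, Tomm20, Tomm40 and Tomm40l stayed called rises after the length correction. Tomm70a, the TOM gene that fell, then turned into a called rise. The summed level of the 39 genes was 2152 and 2254 FPKM with PBS and 3918 and 4002 with NMDA in WT retinas. It lay between 2170 and 2488 in the 8 libraries of shPax6 and JNK3 KO retinas.

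**Figure D1:**
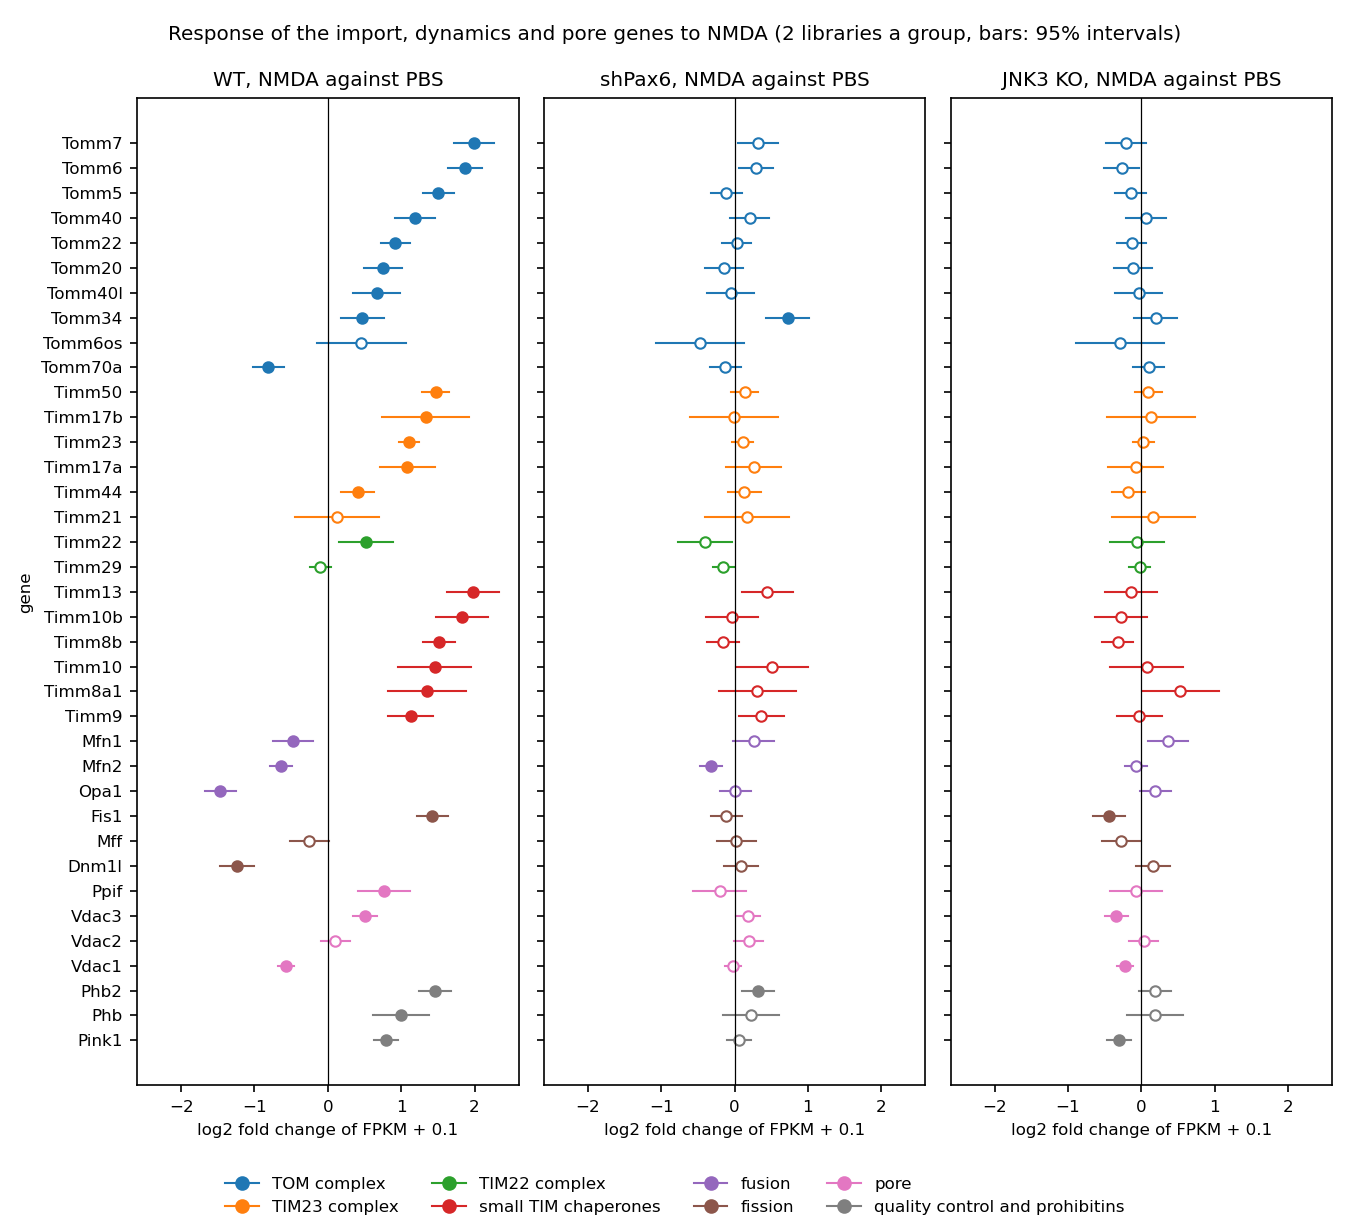
Log2 fold change of FPKM + 0.1, NMDA against PBS, for the 37 tested genes (rows, coloured by role) in WT, shPax6 and JNK3 KO retinas; bars are 95% intervals from limma over 2 libraries a group, and filled points passed an adjusted p of 0.05. In WT retinas values run from -1.47 for Opa1 to 1.99 for Tomm7, while in shPax6 and JNK3 KO retinas all lie between -0.47 and 0.72.

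The TOM complex held the largest rise. Tomm7 (ENSMUSG00000028998, chr5:23838944-23844161 in GRCm38), a small subunit that tunes assembly of the complex, was at 35.6 and 38.7 FPKM in WT PBS libraries and at 144 and 152 in WT NMDA libraries. No other library exceeded 65.3 FPKM. Its log2 fold change was 1.99 ± 0.12 (SE; adjusted p = 1.12e-06), or 3.98-fold.

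Tomm6 (ENSMUSG00000033475, chr17:47686646-47688386), another small subunit and, by its mean over the 12 libraries, the most abundant of the complex per length (Tomm20 had the higher mean in both shPax6 groups), went from 94.8 and 103.6 to 369.7 and 355 FPKM (log2 1.87 ± 0.10, adjusted p = 6.69e-07). Its exons overlap those of Tomm6os on the other strand over 219 bases. Tomm6os, the antisense RNA, was at 1.77 to 2.88 FPKM in WT libraries, and since the sources do not state strand-specific counting, reads of the pair cannot be told apart. Tomm5, the remaining small subunit, went from 33.8 and 37.7 to 101.6 and 101.4 FPKM (log2 1.50 ± 0.09, adjusted p = 1.21e-06).

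The channel itself, Tomm40, went from 32.2 and 32.9 to 75.4 and 73.4 FPKM (log2 1.19 ± 0.12, adjusted p = 2.44e-05). The receptors went both ways. Tomm22, which joins receptor and channel, was at 63.1 and 67.3 FPKM with PBS and 115 and 133 with NMDA (log2 0.92 ± 0.09, adjusted p = 1.71e-05), and Tomm20, a receptor for presequences, rose by log2 0.75 ± 0.11 (adjusted p = 0.000372). Tomm70a (ENSMUSG00000022752, chr16:57121703-57156705), the receptor for carrier precursors and the longest gene of the set at 5957 spliced bases, was at 22.1 and 23.8 FPKM with PBS and 12.4 and 13.7 with NMDA and fell by 0.81 ± 0.09 on the log2 scale (adjusted p = 6.21e-05). Tomm40l, a paralogue of the channel, and Tomm34, a cytosolic cochaperone, rose by log2 0.67 and 0.47.

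In the inner membrane, 5 of the 6 TIM23 genes rose. Timm23, the channel and the most abundant of them, was at 52 and 53.3 FPKM with PBS and 113 and 114 with NMDA (log2 1.11 ± 0.06, adjusted p = 7.06e-07). Timm50, the receptor of the complex, went from 24.2 and 25.2 to 66.5 and 70.7 FPKM (log2 1.47 ± 0.08, adjusted p = 6.19e-07). The channel partners moved alike: Timm17a went from 34.9 and 37.9 to 77.7 and 76.7 FPKM and Timm17b from 22.7 and 30.4 to 65 and 67.7 FPKM. For both, a transcript annotated as retaining an intron held most of the rise, by estimates for single transcripts. Timm17a-204 went from 24.5 and 22.15 to 61.7 and 52 FPKM, and Timm17b-203 from 8.36 and 11.5 to 43.8 and 30.9. The protein-coding Timm17a-201 was at 5.13 and 5.06 against 4.70 and 5.21, and the protein-coding Timm17b-201 went from 7.37 and 6.69 to 11.35 and 12.9. Timm44, which tethers the import motor, rose by log2 0.41 (adjusted p = 0.00623), and Timm21 did not pass (log2 0.13, adjusted p = 0.691).

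Among the carrier translocase genes, Timm22 rose by log2 0.52 ± 0.16 (adjusted p = 0.0214), with WT PBS libraries at 17.7 and 24.1 and WT NMDA libraries at 32 and 27.4 FPKM. Its partner Timm29 was at 29.9 and 30.4 FPKM with PBS and 27.7 and 28.5 with NMDA (log2 -0.10, adjusted p = 0.20).

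Small TIM chaperones carry hydrophobic precursors across the intermembrane space. Timm13 (ENSMUSG00000020219, chr10:80899450-80900969) went from 62.3 and 71.7 to 258 and 269 FPKM, the second largest rise of the 37 (log2 1.98 ± 0.16, adjusted p = 5.10e-06). Timm8b, the most abundant of the group per length, went from 113 and 135 to 359 and 349 FPKM (log2 1.52 ± 0.09, adjusted p = 1.27e-06). Both NMDA libraries lay above both PBS libraries for each of the 6 genes, as for 36.9% of all tested genes.

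Timm10b went from 30.1 and 36.4 to 111 and 126 FPKM (log2 1.83 ± 0.16, adjusted p = 8.50e-06), but its exons overlap over 277 bases those of Arfip2 on the opposite strand, whose mean over the libraries was 67.3 FPKM. Timm10, Timm9 and the X-linked Timm8a1 lay lower. Timm10 went from 16.2 and 18.2 to 44.2 and 50.8 FPKM, Timm9 from 24 and 30.1 to 54.9 and 62.9, and Timm8a1 from 5.05 and 7.13 to 15.9 and 15 (log2 1.46, 1.13 and 1.35).

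All 3 fusion genes fell with NMDA in WT retinas, though Mfn2 turned to 0.10 (adjusted p = 0.217) once libraries were corrected for gene length. Opa1 (ENSMUSG00000038084, chr16:29579334-29654884), the dynamin-like GTPase of the inner membrane, stood at 20.6 and 21.7 FPKM in PBS libraries, against 7.17 and 8.02 after NMDA. In the other 8 libraries it lay between 16.6 and 23 FPKM. Its fall by 1.47 ± 0.09 on the log2 scale (adjusted p = 1.48e-06), 2.76-fold, was the largest of the 37.

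The mitofusins of the outer membrane fell less. Mfn2, the fusion gene with the highest mean over the 12 libraries per length, was at 43.1 and 44.7 FPKM with PBS and 27.3 and 29 with NMDA (log2 -0.64 ± 0.07, adjusted p = 2.83e-05), and Mfn1 was at 32.8 and 38.6 against 24.6 and 26.6 (log2 -0.48 ± 0.12, adjusted p = 0.00788).

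The fission genes split. Dnm1l (ENSMUSG00000022789, chr16:16312230-16358959), the GTPase that constricts the organelle, was at 52.6 and 56 FPKM with PBS and 22.2 and 23.7 with NMDA (log2 -1.24 ± 0.10, adjusted p = 7.23e-06). Fis1, an outer membrane adaptor at 132 and 147 FPKM with PBS, was at 358 and 393 with NMDA (log2 1.43 ± 0.09, adjusted p = 1.78e-06). Mff, the main recruiter of DRP1, was at 114 and 123 against 99 and 99.9 FPKM and did not pass the test (log2 -0.25 ± 0.12, adjusted p = 0.0946).

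Of the pore genes, Vdac1, the major metabolite channel of the outer membrane and the most abundant gene of the whole set with PBS, was at 315 and 333 FPKM and fell to 215 and 219.9 with NMDA (log2 -0.57 ± 0.05, adjusted p = 7.66e-06). Vdac3 rose by log2 0.51 (adjusted p = 0.000224) and Vdac2 did not pass (log2 0.10, adjusted p = 0.356). Ppif, which encodes cyclophilin D, a regulator of the permeability transition pore, went from 11.8 and 13 to 20.6 and 21.7 FPKM (log2 0.77 ± 0.16, adjusted p = 0.00236).

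Pink1, the kinase that marks damaged mitochondria for removal, went from 147 and 154 to 254 and 270.3 FPKM (log2 0.80 ± 0.07, adjusted p = 1.34e-05). The prohibitin Phb2 went from 49.3 and 52.6 to 138 and 143 FPKM (log2 1.46 ± 0.10, adjusted p = 1.76e-06), and its partner Phb rose by log2 0.99 (adjusted p = 0.000746).

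**Figure D2:**
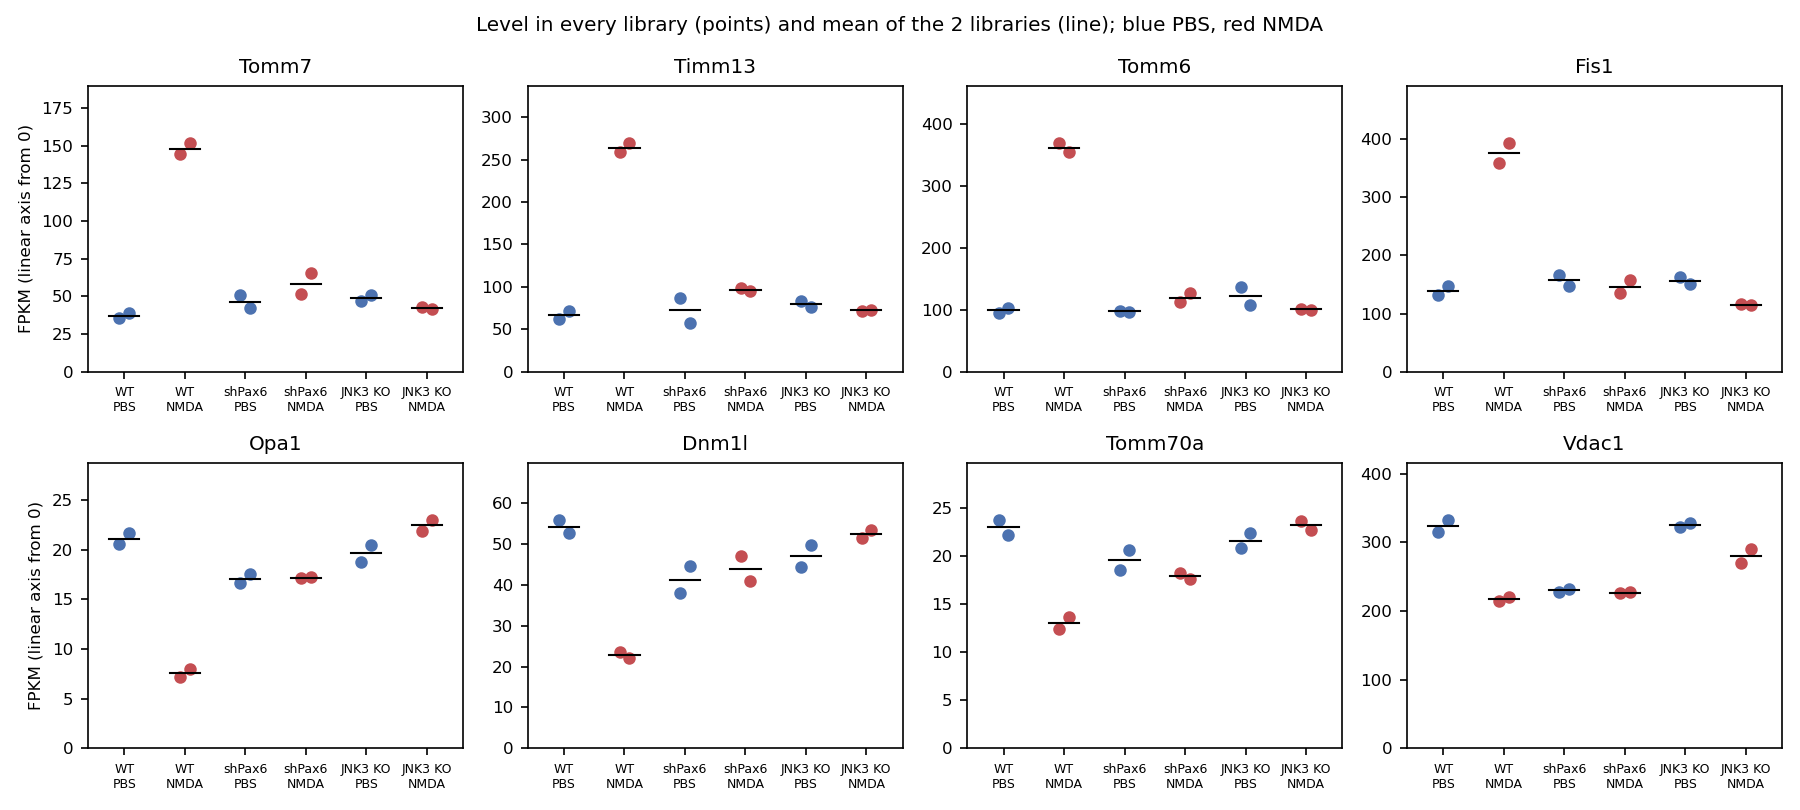
FPKM (linear axes from 0) of 8 genes in each of the 12 libraries (points) and the mean of the 2 libraries of a group (lines), PBS in blue and NMDA in red. For Tomm7, Timm13, Tomm6 and Fis1 the WT NMDA libraries lie above all others, and for Opa1, Dnm1l and Tomm70a below all others; Vdac1 in WT NMDA libraries, at 215 and 219.9 FPKM, lies below but near the shPax6 libraries at 226 to 232.

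The response of a gene in WT retinas went with its length, over all genes and among these. Spliced length is the expected transcript length in the GENCODE M21 annotation of GRCm38, weighted by level. Over all tested genes the median change was 1.03 on the log2 scale under 1 kb, 0.52 at 1 to 2 kb, -0.32 at 2 to 4 kb and -1.17 over 4 kb. The 8 members under 1 kb all rose, with a median of 1.51, and the 3 over 4 kb, Opa1, Mfn2 and Tomm70a, all fell, with a median of -0.81. Members lay above the median of their length class in 8 of 8, 11 of 19, 5 of 7 and 2 of 3 cases, from the shortest class to the longest.

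After each library was corrected for its trend on length, 17 members rose and 6 fell in WT retinas (20.8% of all genes rose and 24.1% fell under this setting), and 14 of the rises and 4 of the falls were calls of the uncorrected fit as well. The rises that lost their call were Timm8a1, Timm9, Timm10, Timm17a, Timm17b, Timm22, Timm44, Tomm22, Tomm34, Phb, Ppif and Vdac3. Tomm7 kept a log2 fold change of 1.11 and Timm13 of 1.02, the only members left above 1. Opa1 stayed lower at -0.43 (adjusted p = 0.00504), Dnm1l at -0.74 (adjusted p = 0.000493) and Vdac1 at -1.01 (adjusted p = 1.50e-05), whereas Tomm70a turned into a called rise (0.33, adjusted p = 0.00974) and Mfn2 to 0.10 (adjusted p = 0.217). Mff, at -0.96, and Vdac2, at -0.48, became called falls, and Timm29, at 0.29 (adjusted p = 0.0062), and Tomm6os, at 0.77 (adjusted p = 0.033), called rises. When each library was rescaled to the same sum (TPM), which moved the median of all genes from -0.09 to -0.66, 18 members rose and 9 fell (13.6% and 50.2% of all genes). Which cause lies behind the trend on length was not tested.

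**Figure D3:**
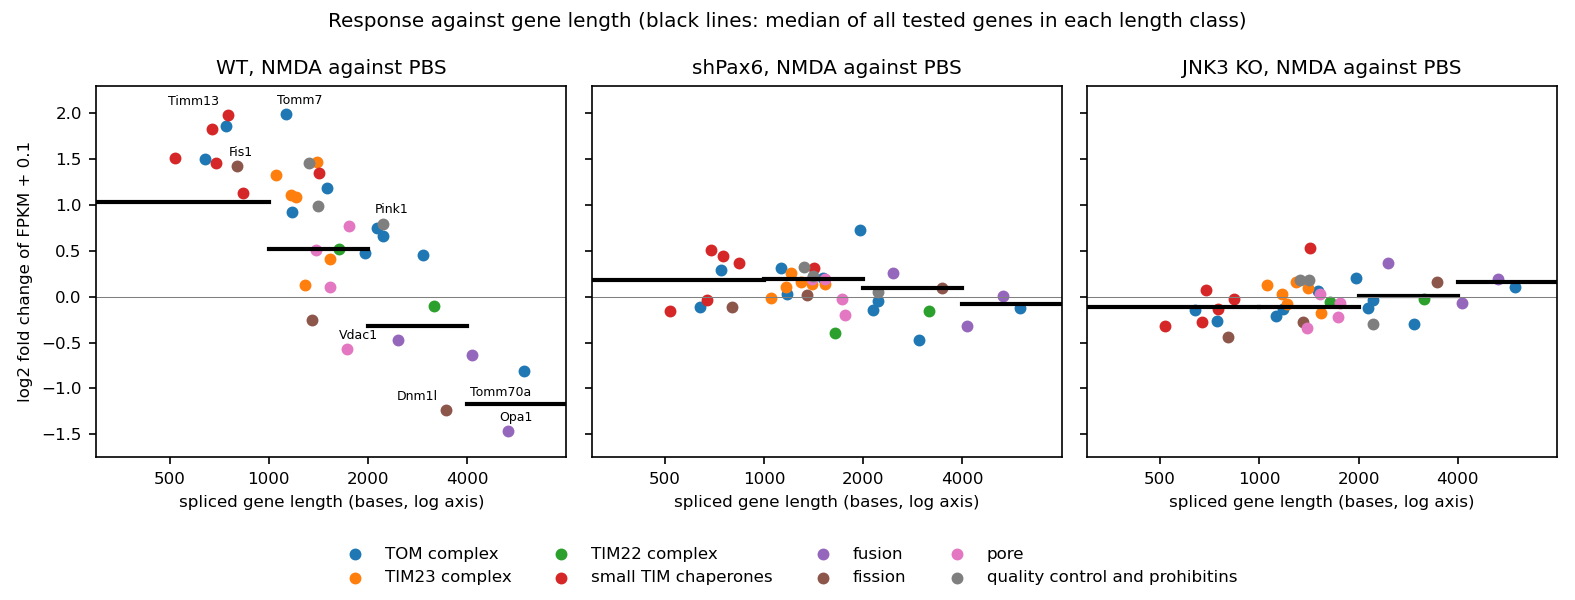
Log2 fold change of FPKM + 0.1, NMDA against PBS, against spliced gene length in bases (log axis) for the 37 tested genes, coloured by role, in WT, shPax6 and JNK3 KO retinas; black lines are the median of all tested genes in 4 length classes. The lines step down from 1.03 to -1.17 in WT retinas and stay between -0.11 and 0.20 in shPax6 and JNK3 KO retinas.

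Estimates for single transcripts, made by RSEM from the same reads, showed where within a gene the WT values moved. Of 153 tested transcripts of the 37 genes, 31 rose and 20 fell, near the share called over all 49940 tested transcripts (35.2%). Among the 37, 7 genes had transcripts in both directions, and the share of all genes with both was not counted. Names follow the deposited transcript table.

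For Vdac1, a single transcript passed the test. The 891-base Vdac1-201 was at 94.7 and 112 FPKM in WT PBS libraries and listed at 0 in both WT NMDA libraries. It was at 35.4 to 48.6 in the 4 shPax6 libraries and 78.4 to 119 in the 4 JNK3 KO libraries. The 2022-base Vdac1-202 averaged 216 FPKM with PBS and 215 with NMDA in WT retinas (adjusted p = 0.966). Both are annotated as protein coding.

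For Pink1 it was a short protein-coding transcript: Pink1-202, of 1465 bases, went from 7.57 and 9.21 to 114 and 148 FPKM in WT retinas (log2 3.94, adjusted p = 5.36e-05), and lay between 4.69 and 12.3 in the other 8 libraries. Pink1-201, of 2375 bases, averaged 142 and 131 FPKM (adjusted p = 0.327).

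For Dnm1l, the protein-coding Dnm1l-201 went from 17.9 and 18.7 to 3.36 and 4.30 FPKM (log2 -2.24, adjusted p = 9.38e-05), while Dnm1l-206, annotated as retaining an intron, went from 5.03 and 5.45 to 15.9 and 16.6 (log2 1.62, adjusted p = 0.00213). Mfn1 exchanged transcripts of unlike length: the 4562-base Mfn1-201 went from 8.08 and 9.09 to 17.3 and 17.3 FPKM and the 2789-base Mfn1-202 from 12 and 13.3 to 1.69 and 0. Division of reads among transcripts of a gene is an estimate, so an exact 0 may be a failed one.

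In shPax6 retinas none of the 153 rose and 4 fell with NMDA (8.34% of all transcripts called), and in JNK3 KO retinas none rose and 1 fell (1.31%).

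**Figure D4:**
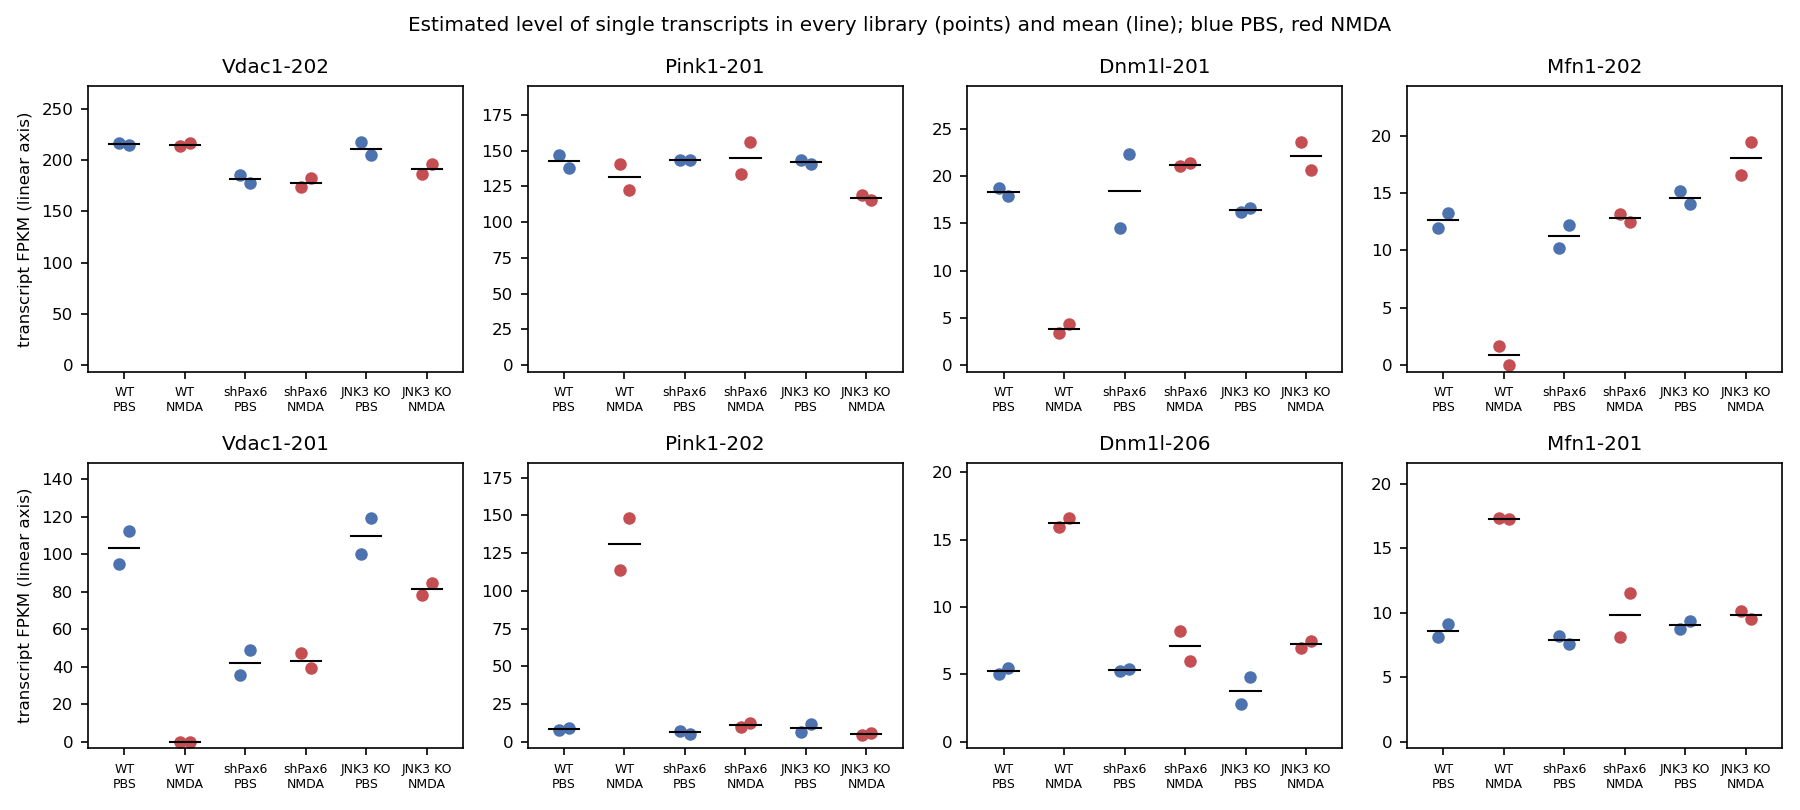
Estimated FPKM (linear axes) of 8 transcripts of Vdac1, Pink1, Dnm1l and Mfn1 in each of the 12 libraries (points) and the mean of a group (lines), PBS in blue and NMDA in red. Vdac1-201 is at 0 and Pink1-202 at 114 and 148 in the WT NMDA libraries, apart from the other 10 libraries, while Vdac1-202 and Pink1-201 are near their PBS level in WT retinas.

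Promoter windows of RefSeq (GRCm38.p6, from 250 bases before to 50 after an annotated start) were found for 34 of the 39 genes and searched on both strands for the letters of 4 motifs of factors known at mitochondrial genes or downstream of JNK. CCGGAAG, the core of ETS sites such as those of GABP, stood in the windows of 15 of the 34 genes (44.1%), against 9.93% of all 27025 genes with a window. These 27025 include genes too low in retina to be tested, and the share among tested genes was not counted. It was present in 9 of 23 genes that rose and 4 of 6 that fell in WT retinas. The core of NRF1 sites stood in 5 of 34 (14.7%, against 5.19% of all genes), TGANTCA, an AP-1 core, in 4 (11.8% against 8.97%) and AAGATGGCG, a YY1 core, in 1 (2.94% against 1.64%). A match describes letters and no binding. The stretches printed here, each of 30 bases and upstream of the annotated start, show that the same core stands before genes that rose (Fis1, Timm8b, Timm10, Timm23 and Tomm20) and genes that fell (Tomm70a, Mfn1, Vdac1 and Opa1). Capitals mark the motif or its reverse complement: ETS in the first 7, NRF1 in Tomm20 and Opa1.
Fis1, chr5:136953245-136953274, plus strand: aggaggcaccacCCGGAAGttcaggcttcc
Timm8b, chr9:50603871-50603900, plus strand: ggcaacctgaagcgtgaaCCGGAAGgcagg
Timm10, chr2:84826991-84827020, plus strand: ctggtcggcgttttCTTCCGGatcaaagaa
Timm23, chr14:32201920-32201949, minus strand: cgcgcttcccaCTTCCGGgccgcacacagc
Tomm70a, chr16:57121623-57121652, plus strand: gccttctgaccCCGGAAGtggttctcccct
Mfn1, chr3:32529427-32529456, plus strand: gatccgaagcgCCGGAAGtagccgccccta
Vdac1, chr11:52360735-52360764, plus strand: cgctctgtgtgCCGGAAGctcccctccccc
Tomm20, chr8:126945922-126945951, minus strand: gggtccatctGCGCGTGCGCaccaggcgtt
Opa1, chr16:29579265-29579294, plus strand: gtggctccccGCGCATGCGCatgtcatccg

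With the hairpin against Pax6, 3 members passed the test after NMDA, where 30.2% of all tested genes were called (19.1% higher and 11.0% lower). Their median log2 fold change was 0.09, against 0.10 for all genes. Tomm34 was at 7.95 and 9.64 FPKM with PBS and 15.4 and 13.7 with NMDA (log2 0.72 ± 0.13, adjusted p = 0.00295), and Phb2 at 64.2 and 64.3 against 77.5 and 83.6 (log2 0.32 ± 0.10, adjusted p = 0.0323). Mfn2 was at 44.6 and 48.2 with PBS and 36.9 and 37.5 with NMDA (log2 -0.32 ± 0.07, adjusted p = 0.00624). The genes with the largest changes in WT retinas had small values here: Opa1 was at 16.6 and 17.6 FPKM with PBS and 17.2 and 17.2 with NMDA (log2 0.01, 95% interval -0.20 to 0.22), and Tomm7 at 42.4 and 50.8 against 51.3 and 65.3 (log2 0.32, interval 0.04 to 0.59, adjusted p = 0.0787). Without shPax6 PBS replicate 1, 6 members were called, without either shPax6 NMDA library 5, and none when the spread was estimated from the 2 groups alone (0 calls).

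In JNK3 KO retinas 4 members fell and none rose, where 10.4% of all genes were called (4.33% higher and 6.10% lower). Their median was -0.06, against -0.01 for all genes. Fis1 was at 150.3 and 163 FPKM with PBS and 115 and 116 with NMDA (log2 -0.44 ± 0.09, adjusted p = 0.0198), Vdac3 at 104 and 113 against 84.1 and 86.6 (log2 -0.34 ± 0.07, adjusted p = 0.0192), and Pink1 at 149.7 and 152 against 121 and 124 (log2 -0.30 ± 0.07, adjusted p = 0.0311). Vdac1 fell by 0.22 on the log2 scale (adjusted p = 0.0229), from 323 and 327 to 269.7 and 290.2 FPKM. Fis1, Vdac3 and Pink1 had risen in WT retinas, but the WT value of Vdac3 was below 0 as TPM (-0.064), by quantiles (-0.12) and with the length correction (-0.17), and that of Pink1 was 0.037 by quantiles (adjusted p = 0.735). Opa1 was at 18.8 and 20.5 against 21.9 and 23 FPKM (log2 0.19, interval -0.02 to 0.41) and Dnm1l at 44.5 and 49.8 against 51.5 and 53.5 (log2 0.16, interval -0.08 to 0.39). No member stayed called without JNK3 KO PBS replicate 1 or without JNK3 KO NMDA replicate 1, and 2 were called without PBS replicate 2 and 1 without NMDA replicate 2.

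The difference between responses was tested directly. The WT response exceeded that of shPax6 retinas for 24 members and lay under it for 6 (49.7% of all genes called, 18.3% higher and 31.4% lower), with a median difference of log2 0.89 against -0.28 for all genes. Against JNK3 KO retinas it was higher for 23 and lower for 6 (51.4% called, 23.5% higher and 27.9% lower), with a median of 0.85 against -0.03. Both tests use the same 4 WT libraries and are not independent. For Tomm7 the difference was log2 1.67 ± 0.17 from shPax6 (adjusted p = 6.74e-05) and 2.20 ± 0.17 from JNK3 KO retinas (adjusted p = 8.90e-06). For Opa1 it was -1.48 ± 0.13 (adjusted p = 3.18e-05) and -1.66 ± 0.13 (adjusted p = 1.02e-05), and for Dnm1l -1.33 ± 0.15 and -1.40 ± 0.15. Fis1 differed by 1.54 ± 0.13 and 1.87 ± 0.13. The differences of Mff, Vdac2, Timm21, Timm29, Tomm34 and Tomm6os did not pass in either test. After the correction for length, 15 members were higher and 6 lower in each of the tests, against 13.1% and 22.6% of all genes for shPax6 and 16.7% and 15.9% for JNK3 KO retinas. Calls shared with the uncorrected fit were 13 higher and 4 lower for shPax6, and 11 higher and 4 lower for JNK3 KO retinas. The rest were called only after the correction.

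The values behind these differences, outside WT retinas, were as follows for the genes that differed by over 1. Since these genes were picked for that difference, their place against the WT NMDA libraries follows largely from the choice. It is given here and in the following paragraphs as description, and the share of all genes placed so was not counted. Tomm7 was at 50.8 and 42.4 FPKM with PBS and 51.3 and 65.3 with NMDA in shPax6 retinas, and at 47.3 and 51 with PBS and 43.3 and 41.7 with NMDA in JNK3 KO retinas. For Tomm6 the shPax6 libraries held 98.6 and 97.2 FPKM with PBS and 113 and 127 with NMDA, and the JNK3 KO libraries 137 and 108 with PBS and 102 and 100.3 with NMDA. Tomm5 levels were 54.8 and 50.4 FPKM (PBS) and 49.4 and 47.7 (NMDA) in shPax6 retinas, and 46.4 and 39.5 (PBS) and 37.3 and 40.3 (NMDA) in JNK3 KO retinas. The 3 small TOM subunits thus stayed under their WT NMDA levels in all 8 libraries. Tomm40 was at 37.2 and 29 FPKM with PBS and 40 and 35.9 with NMDA in shPax6 retinas, and at 33.6 and 30.1 with PBS and 35.1 and 31.6 with NMDA in JNK3 KO retinas. For Tomm22 the shPax6 libraries held 72.1 and 68.3 FPKM with PBS and 69 and 74.2 with NMDA, and the JNK3 KO libraries 85 and 75.3 with PBS and 74 and 72.1 with NMDA. The channel and its central receptor did so too.

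Timm13 levels were 86.8 and 57.9 FPKM (PBS) and 98.6 and 94.9 (NMDA) in shPax6 retinas, and 83.1 and 76.9 (PBS) and 72.2 and 73 (NMDA) in JNK3 KO retinas. Timm8b was at 156 and 152 FPKM with PBS and 133 and 143 with NMDA in shPax6 retinas, and at 159 and 141 with PBS and 126 and 114 with NMDA in JNK3 KO retinas. For Timm10b the shPax6 libraries held 50.1 and 40.2 FPKM with PBS and 38.6 and 50.1 with NMDA, and the JNK3 KO libraries 50.4 and 44.2 with PBS and 38.8 and 39.1 with NMDA. Each of these values lay under both WT NMDA libraries of the same gene. Timm10 levels were 20.6 and 12.1 FPKM (PBS) and 23.8 and 21.3 (NMDA) in shPax6 retinas, and 18.5 and 20.1 (PBS) and 18.3 and 22.6 (NMDA) in JNK3 KO retinas. Timm9 was at 23.9 and 27.8 FPKM with PBS and 33.7 and 32.8 with NMDA in shPax6 retinas, and at 32.6 and 27 with PBS and 29.6 and 28.6 with NMDA in JNK3 KO retinas. For Timm8a1 the shPax6 libraries held 4.91 and 7.22 FPKM with PBS and 6.24 and 8.82 with NMDA, and the JNK3 KO libraries 7.35 and 7.04 with PBS and 10.2 and 10.7 with NMDA. For these less abundant chaperones, too, every value lay under both WT NMDA libraries.

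Timm50 levels were 27 and 24.8 FPKM (PBS) and 27.4 and 29.7 (NMDA) in shPax6 retinas, and 27.3 and 29.7 (PBS) and 29.9 and 31 (NMDA) in JNK3 KO retinas. Timm23 was at 58.5 and 60.6 FPKM with PBS and 60.9 and 67.9 with NMDA in shPax6 retinas, and at 67.3 and 65.4 with PBS and 68.5 and 66.8 with NMDA in JNK3 KO retinas. Receptor and channel of the TIM23 complex lay under both WT NMDA libraries throughout. For Timm17a the shPax6 libraries held 49.3 and 33.5 FPKM with PBS and 48.4 and 49 with NMDA, and the JNK3 KO libraries 43.6 and 46.7 with PBS and 37.9 and 48.1 with NMDA. Timm17b levels were 38.4 and 19.4 FPKM (PBS) and 28.4 and 26 (NMDA) in shPax6 retinas, and 29.2 and 26.1 (PBS) and 30.7 and 29.6 (NMDA) in JNK3 KO retinas. Of the channel partners, the shPax6 PBS libraries were the most unlike each other. Phb2 was at 64.2 and 64.3 FPKM with PBS and 77.5 and 83.6 with NMDA in shPax6 retinas, and at 63.6 and 57.8 with PBS and 62.1 and 76.2 with NMDA in JNK3 KO retinas. Pink1 in shPax6 retinas was at 151 and 148 FPKM with PBS and 143 and 168 with NMDA, while Fis1 was at 167 and 148 with PBS and 135 and 157 with NMDA. Dnm1l in shPax6 retinas was at 38 and 44.5 FPKM with PBS and 47 and 40.9 with NMDA. Phb2, Pink1 and Fis1 lay under, and Dnm1l above, both WT NMDA libraries in each of the 8. Of the genes that differed by less, Tomm70a was at 18.5 and 20.6 FPKM with PBS and 18.2 and 17.6 with NMDA in shPax6 retinas, and at 20.8 and 22.4 with PBS and 23.6 and 22.7 with NMDA in JNK3 KO retinas. Timm29 was at 38.2 and 36.2 FPKM with PBS and 33.3 and 33.6 with NMDA in shPax6 retinas, and at 35 and 33.3 with PBS and 33.8 and 33.4 with NMDA in JNK3 KO retinas. Mfn2 in JNK3 KO retinas was at 43.3 and 44.2 FPKM with PBS and 41.9 and 41.5 with NMDA, and Vdac1 in shPax6 retinas at 228 and 232 with PBS and 226 and 227 with NMDA. These 4 genes lay above both WT NMDA libraries in each of these values.

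Without injury the hairpin retinas differed from WT in 9 members, where 16.5% of all genes were called (5.36% higher and 11.2% lower). Tomm20 was at 80.2 and 98.9 FPKM in WT PBS and 135 and 153 in shPax6 PBS libraries (log2 0.69 ± 0.11, adjusted p = 0.00382), and Tomm5 at 33.8 and 37.7 against 50.4 and 54.8 (log2 0.56 ± 0.09, adjusted p = 0.00391). The short Tomm20-202 was estimated at 51.1 and 31.8 FPKM in WT PBS and 106 and 83.1 in shPax6 PBS libraries. Tomm20-201 was at 47.8 and 48.4 against 47.2 and 51.4. Phb2, Timm8b and Timm29 were higher by log2 0.30 to 0.34. Tomm34 was lower, at 7.95 and 9.64 against 14.5 and 16.1 FPKM (log2 -0.80 ± 0.13, adjusted p = 0.00352), as were Vdac1, at 228 and 232 against 315 and 333 (log2 -0.49 ± 0.05, adjusted p = 0.000214), Dnm1l (log2 -0.40, adjusted p = 0.0291) and Vdac3 (log2 -0.31, adjusted p = 0.0188). With NMDA, Tomm34 stood at 13.7 and 15.4 FPKM in shPax6 retinas. The median of the 37 was 0.06. Leaving out WT PBS replicate 1, WT PBS replicate 2 or shPax6 PBS replicate 1 left 5 calls each. Markers of other cells differed too: 8 of 13 RGC, 4 of 8 amacrine, 6 of 8 neutrophil and 4 of 5 erythrocyte markers were lower, 8 of 8 rod markers were higher, and of 10 microglia and macrophage markers 4 were higher and 2 lower. Their part in these 9 calls was not tested.

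JNK3 KO and WT retinas under PBS differed in 1 member, where 1.51% of all genes were called (1.10% higher and 0.407% lower). Timm23 was at 52 and 53.3 FPKM in WT and 65.4 and 67.3 in JNK3 KO retinas (log2 0.33 ± 0.06, adjusted p = 0.0408). This call was lost when any of the 8 WT and JNK3 KO libraries was left out. At an unadjusted p of 0.05, 11 members were higher and 0 lower, where 15.1% of all genes passed in either direction, and the median of the 37 was 0.14. Over all genes the median was 0.17 under 1 kb, 0.11 at 1 to 2 kb, -0.02 at 2 to 4 kb and -0.18 over 4 kb. In the same classes members had medians of 0.26, 0.09, 0.05 and -0.09. The part of length in the count of 11 was not tested.

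Further genes of the same machineries were read from 3 lists. Of all tested genes 26.0% rose and 33.8% fell in the WT response, with a median of -0.09. In WT retinas, of 22 other import genes, 15 rose and 2 fell (median 0.69): Romo1, which helps regulate the TIM23 channel, by log2 2.10 and Dnajc15, a cochaperone of the import motor, by 1.91, while Mtx3, a metaxin, fell by 0.73 and Agk, a subunit of the TIM22 complex, by 0.55. Of 22 other pore, carrier and cristae genes, 15 rose and 2 fell (median 0.55), with Chchd10 at log2 2.10 and Micos13 at 1.95, both cristae genes, and Micu3, a regulator of the calcium uniporter, at -1.29 and Hk1, the hexokinase that docks on VDAC, at -0.25. Of 23 other dynamics and mitophagy genes, 6 rose, near the share of all genes, and 11 fell (median -0.42). Gdap1, a fission factor, fell by 1.96 and Bnip3l, a mitophagy receptor, by 1.51. Spg7, an inner membrane protease, and Stoml2, a scaffold, rose by log2 1.28 and 0.79.

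In shPax6 retinas, where 30.2% of all genes were called, 3 import genes rose and 1 fell, with the matrix chaperonin Hspe1 at log2 0.81 and its partner Hspd1 at 0.36 above, and Mtx2 at -0.58. Of the pore, carrier and cristae genes 8 rose and 2 fell, with Tspo, an outer membrane protein known to rise in reactive glia, at log2 1.52, Mcub at 1.29, Chchd3 at -0.49 and Micu3 at -0.41. Of the dynamics genes 4 rose and 2 fell, with the mitophagy receptor Bnip3 at 0.73, the protease Afg3l2 at 0.67, Fundc1 at -0.69 and Mtfr1 at -0.53. Summed microglia and macrophage markers in shPax6 retinas went from 169 to 183 up to 549 to 585 FPKM, and their part in these changes was not tested.

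In JNK3 KO retinas, where 10.4% of all genes were called, the import chaperones Hspd1, Hspa9 and Hspe1 rose by log2 0.48, 0.37 and 0.34 and Pam16 fell by 0.46. Of the pore, carrier and cristae genes 1 rose, Micu2 (log2 0.65), and 3 fell, Cycs by 0.62, Chchd6 by 0.46 and Hk2 by 0.46. Of the dynamics genes Yme1l1, an inner membrane protease that cuts OPA1, rose by log2 0.48 and Bnip3 fell by 0.50. With PBS, shPax6 retinas differed from WT in 3, 4 and 3 of the 22 import, 23 dynamics and 22 pore genes, near the 16.5% of all genes, and JNK3 KO retinas in 0, 0 and 2 (1.51% of all genes).

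Markers of other cells moved with the WT response too, in which 26.0% of all tested genes rose and 33.8% fell. Of the neutrophil list 6 of 8 rose and of the erythrocyte list 5 of 5, the latter from a sum of 97.3 to 107 up to 613 to 649.96 FPKM. RGC markers fell in 11 of 13 cases and amacrine markers in 8 of 8. Of 8 rod markers 4 rose and 2 fell, of 8 Müller glia markers 3 rose and 5 fell, of 10 microglia and macrophage markers 5 rose and 4 fell, and of 5 tested lens markers 3 rose. None of the lists had a gene at 0 in all libraries, and the rod sum stayed at 24243 to 24993 FPKM in WT retinas. RGC markers also fell in 10 of 13 cases in shPax6 and 9 of 13 in JNK3 KO retinas, where 11.0% and 6.10% of all genes fell. The part of these cells in the values of the 37 genes was not tested.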

How the data were processed

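Whole-retina RNA of 12 libraries was analysed from the deposited tables of gene and transcript FPKM. Per the labels and the study's methods, poly-A libraries (TruSeq, paired-end reads) were aligned by the authors with STAR 2.7.1a to GRCm38.p6 and quantified with RSEM 1.3.3, and edgeR 3.36.0 is named among their tools. The deposited files hold no counts, so depth and counting error are unknown. FPKM is relative to a library's own total, so a few abundant genes can shift all others. The 39 genes and all lists were chosen with earlier results of these data known.

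Genes averaging over 1 FPKM in any group (16471) were fitted on log2(FPKM + 0.1) with limma 3.58.1 in R 4.3.3 (6 group means, 6 residual degrees of freedom, eBayes with an intensity trend), and p-values were Benjamini-Hochberg adjusted over all genes in each of 7 comparisons. Fold changes on this scale understate those of low genes. Transcripts (49940) were fitted in the same way. A gene was called at an adjusted p under 0.05. Symbols came from the deposited gene table. Lengths, positions and gene types came from GENCODE M21, which held 55227 of the 55487 gene IDs. Levels of genes are compared per length, as FPKM.

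Values in every library are given for the 3 largest rises and falls past the threshold in each NMDA response, the most abundant gene of each role and genes whose response differed between genotypes by over 1. Other pathway genes (other import, other dynamics and mitophagy, other pore, carrier and cristae genes) are named for the 2 largest rises and falls. Marker lists covered RGCs, amacrine cells, rods, Müller glia, microglia and macrophages, neutrophils, lens and erythrocytes. Alternatives were other pseudocounts, filters and scalings, a length correction (lowess, span 0.3), other variance models, a replicate block and leaving out each library. The fits were tested on simulated data.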

Additional observations from a re-analysis of the deposited data

Results flagged for a closer look

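Genes are listed here because their NMDA response differed between genotypes by more than 1 on the log2 scale, by limma's test of the difference itself (adjusted p under 0.05). Groups of 2 libraries were not tested for a library standing apart. Both sets of differences use the same WT libraries.

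Against JNK3 KO retinas, the WT response of TOM genes was higher by log2 2.20 for Tomm7, 2.14 for Tomm6, 1.65 for Tomm5, 1.12 for Tomm40 and 1.05 for Tomm22. Small TIM genes differed by 2.12 for Timm13, 2.11 for Timm10b, 1.84 for Timm8b, 1.38 for Timm10 and 1.15 for Timm9. TIM23 genes differed by 1.37 for Timm50, 1.20 for Timm17b, 1.16 for Timm17a and 1.08 for Timm23. Fis1 differed by 1.87, Phb2 by 1.28 and Pink1 by 1.10. The WT response was lower for Opa1, at -1.66, and Dnm1l, at -1.40.

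Against shPax6 retinas, the differences were log2 1.67 for Tomm7, 1.62 for Tomm5 and 1.58 for Tomm6 among TOM genes. Among small TIM genes they were 1.86 for Timm10b, 1.68 for Timm8b, 1.53 for Timm13 and 1.04 for Timm8a1. Timm17b differed by 1.34, Timm50 by 1.33, Fis1 by 1.54 and Phb2 by 1.14. Opa1 was at -1.48 and Dnm1l at -1.33.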

How the results depend on the processing

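The WT response and both differences between responses kept counts of called members within 1.5 times under all alternatives run, while the smaller counts did not. At an unadjusted p under 0.05 the counts were 11 in shPax6, 9 in JNK3 KO, 15 in shPax6 against WT and 11 in JNK3 KO against WT retinas with PBS, where 40.9%, 24.2%, 29.6% and 15.1% of all genes passed. The single call of JNK3 KO against WT went to 0 without a filter, as TPM, with 75th percentile scaling, quantile normalization, spread from the groups compared, no intensity trend, the replicate block and the length correction. Quantile normalization gave 6 calls in shPax6 and 1 in JNK3 KO retinas. Spread from the groups compared gave 0 in shPax6, 2 in JNK3 KO and 1 in shPax6 against WT. Without an intensity trend there were 0 in JNK3 KO and 5 in shPax6 against WT, and with the length correction 0 in JNK3 KO.

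The median of members in the WT response was 0.22 as TPM, 0.72 at the 75th percentile, 0.50 by quantiles and 0.33 with the length correction. For WT minus shPax6 it was 0.81 with a pseudocount of 1, 0.82 with 0.5, 0.37 as TPM, 0.55 by quantiles and 0.38 with the length correction. For WT minus JNK3 KO it was 0.25 as TPM, 0.76 at the 75th percentile, 0.47 by quantiles and 0.28 with the length correction. In shPax6 retinas it was -0.027 at the 75th percentile, -0.036 by quantiles and 0.015 with the length correction, which gave -0.039 in shPax6 against WT. As TPM, 12 members were higher and 10 lower for WT minus shPax6, and 15 and 9 for WT minus JNK3 KO (9.20% and 47.2%, and 12.8% and 42.3% of all genes). By quantiles the splits were 21 and 9 in the WT response, 19 and 8, and 18 and 8 (26.8% and 30.6%, 19.6% and 22.9%, and 21.96% and 26.0% of all genes).

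Single members turned direction. As TPM, the WT response was -0.17 for Timm44, -0.064 for Vdac3, -0.099 for Tomm34, -0.056 for Timm22 and -0.47 for Vdac2; WT minus shPax6 was -0.20 for Vdac3 and -0.47 for Timm29; WT minus JNK3 KO was -0.0087 for Timm44, -0.52 for Vdac2 and -0.57 for Mff. By quantiles, the WT response was -0.12 for Vdac3 and -0.61 for Vdac2, WT minus shPax6 was -0.17 for Vdac3, and WT minus JNK3 KO was -0.76 for Vdac2 and -0.69 for Mff. With the length correction, the WT response was -0.16 for Timm44, -0.17 for Vdac3, -0.48 for Vdac2, 0.33 for Tomm70a, 0.10 for Mfn2 and 0.29 for Timm29. WT minus shPax6 was then -0.23 for Vdac3, 0.19 for Tomm70a and 0.25 for Mfn2, and WT minus JNK3 KO was -0.054 for Timm44, -0.57 for Vdac2, 0.45 for Tomm70a, -0.77 for Mff, 0.29 for Mfn2 and 0.38 for Timm29. Without shPax6 NMDA replicate 1, Timm21 was at 0.45 for WT minus shPax6, and without replicate 2 at -0.53. The cause was not tested.

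Leaving out a library at a time (a lone library is then assumed to vary like the other groups) gave 29 to 33 calls in WT, 2 to 6 in shPax6 and 0 to 4 in JNK3 KO retinas, 5 to 10 in shPax6 against WT, 0 to 1 in JNK3 KO against WT, 24 to 30 for WT minus shPax6 and 26 to 30 for WT minus JNK3 KO. The medians ran, in the same order, from 0.80 to 0.90, 0.05 to 0.10, -0.06 to 0.0021, -0.03 to 0.15, 0.11 to 0.17, 0.73 to 0.89 and 0.79 to 0.97. With the replicate number as a block, calls were 32, 3, 4, 9, 0, 30 and 30; replicates of a number share only that number, since deviations correlated at -0.0973 to 0.0858 over 15 pairs of groups, with 0 over 0.1. Depth is unknown without counts, so values near 0 have no stated error of counting.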

Other observations

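As a share of a library's summed FPKM, the 39 genes made up 0.398% and 0.409% in WT PBS libraries and 0.486% and 0.488% in WT NMDA libraries, a smaller step than their summed FPKM since the totals differ too. Fusion genes went from 0.0180% and 0.0189% to 0.00729% and 0.00779% of the total in WT retinas, and TOM genes from 0.0765% and 0.0794% to 0.126% and 0.129%. Fission genes, whose members moved in opposite directions, took 0.0558% and 0.0586% with PBS and 0.0598% and 0.0626% with NMDA.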
